A study of Mus musculus with 8 samples.

Results

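Genes of the vesicle trafficking families were examined in MIN6-K8, a beta cell line from a mouse insulinoma that secretes insulin. They were chosen by name alone: every gene of the deposited list whose mouse symbol begins as those of the Rab, Arf and Arl GTPases, the TBC proteins, the SNAREs and their binders, the Sec, COPI, Tmed, TRAPP, golgin and exocyst genes, the clathrin adaptor subunits, the sorting nexins or the Vps genes. The pattern took 66 of the 3278 listed genes. RNA was sequenced from 4 libraries of untreated cells and 4 libraries of cells exposed to 40 µM selenomethionine (SeMet) for 6 days, the selenium analogue of methionine. All 8 libraries came from the same wild-type line, of background strain IT6 per the labels. The title of the series gives insulin secretion under SeMet as its subject.

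A secreted protein such as insulin enters the endoplasmic reticulum (ER) through the Sec61 channel, leaves it in vesicles coated by COPII, and reaches the Golgi, from which COPI-coated vesicles carry membrane and ER residents back. Insulin is then packed into granules that wait beneath the plasma membrane, and SNARE proteins on granule and membrane zip together to release it. Rab, Arf and Arl GTPases mark each membrane and recruit the tethers, coats and motors that act there, while adaptor complexes, sorting nexins and Vps complexes sort and recycle cargo through endosomes.

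The role classes were counted by direction. All 11 listed genes of the COPI coat, the COPII coat, the Sec61 channel and signal peptidase were higher under SeMet, by small amounts, with log2 fold changes of 0.09 to 0.28. All 4 listed sorting nexins and all 3 listed Vps genes were lower. The Rab GTPases, their regulators, the SNAREs, the adaptors and the p24 proteins went both ways. The largest changes were in sparsely expressed Rab genes, with Rab15 2.38-fold and Rab33a 2.05-fold lower as fitted on log2(value + 1). The largest rises were those of Arl15 and Rab3b, 1.35-fold and 1.34-fold.

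These counts need their background. The authors listed genes as differing, by a rule that is not given here, so a member's passing is not independent evidence of a response. Values were deposited as counts that the authors had scaled per library, called normalised counts below, and they were compared as log2(value + 1) with limma, adjusted over the listed genes. All 66 members passed at an adjusted p of 0.05, as did 100% of the listed genes. Of the members 30 rose and 36 fell, or 45.5% and 54.5%, beside 47% of all listed genes higher and 53% lower. The median log2 fold change of the members was -0.12 beside -0.13 over all listed genes. As a stricter reading, p-values were also adjusted over all 55450 annotated genes counting each unlisted gene as wholly unchanged. By that reading 40 members passed (60.6%), beside 71.4% of the listed genes. They were 20 higher and 20 lower, or 30.3% each, beside 33.1% and 38.2% of the listed genes. The 4 control and 4 SeMet values did not overlap for 51 members (77.3%), beside 85.8% of the listed genes. Of these 23 were higher (34.8%) and 28 lower (42.4%), beside 40.3% and 45.6% of the listed genes. A rise or fall below is one that passed over the listed genes, and the stricter result is given beside it where it differs. The members thus divided in direction as the whole list did, and what follows describes how the direction varied with role.

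The members' changes were small. Only Rab15 and Rab33a reached 2-fold (Rab33a not with a pseudocount of 10), 3.03% of the members beside 5.46% of the listed genes, and 52 of the 66 changed by less than 1.2-fold. The median absolute log2 fold change was 0.19 among members and 0.25 over the list. Members also varied less between libraries, with a median coefficient of variation of 4.1% in controls and 4.02% under SeMet, beside 5.36% and 4.94% over the list. Members were not matched to the list by level in this comparison. Their control levels per kb of exon ranged from 14.8 to 3096 normalised counts per kb, with a median of 386 beside 209 for the listed genes with a known length. Among the listed genes above the median level per kb the median absolute change was 0.20, and at or below it 0.36. The members above that level numbered 42, with a median absolute change of 0.17, and those at or below it 24, with 0.27.

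**Figure D1:**
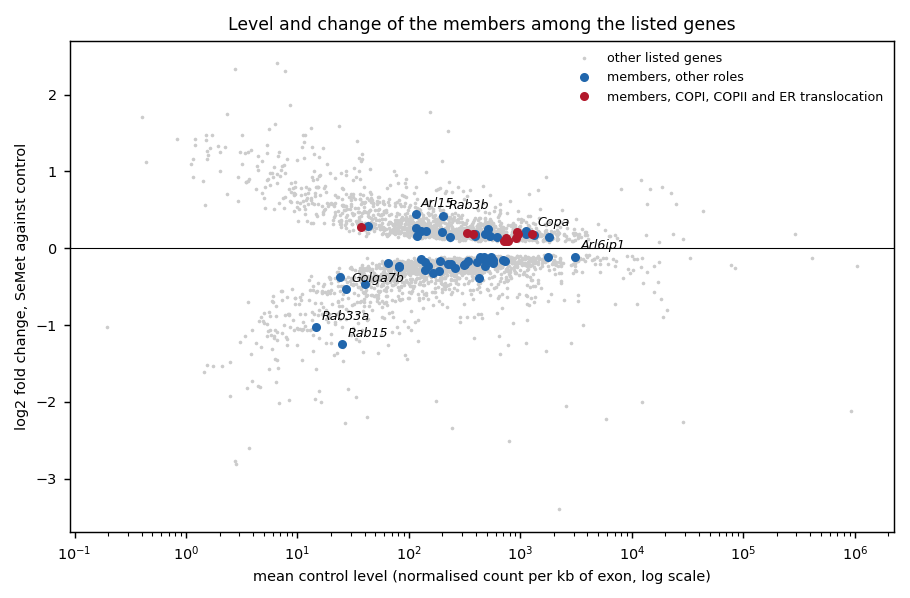
Log2 fold change of SeMet against control (vertical) by mean control level in normalised counts per kb of exon (horizontal, log scale) for the listed genes (grey), the members of the COPI, COPII and ER translocation classes (red) and the other members (blue). The empty band around 0 is where the deposited list has no genes, since the smallest absolute log2 fold change in it was 0.08, and the 2 members past 2-fold, Rab15 and Rab33a, lie at the low end of the members' levels.

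The recovered reads in the listed genes numbered 8544454 to 11144953 per library, and the members held 126277 to 162954 of them. Library correlations of log2 values were 0.994 to 0.997 within groups and 0.969 to 0.978 between them. As a share of the listed sum of normalised counts, the members made up 1.46% to 1.51% in controls and 1.58% to 1.62% under SeMet. Much of this difference lay in the listed sum, which was 9611601 to 9858266 in controls and 9083491 to 9440250 under SeMet. The members' own sum was 144141 to 145186 in controls and 146866 to 149055 under SeMet. All 10 beta cell markers examined were listed, with summed values of 2155267 to 2386110 in controls and 1940974 to 2166644 under SeMet, 2 higher and 8 lower. Of markers of other cells, the alpha cell genes Gcg and Irx2 summed to 661 to 743 in controls and 1038 to 1231 under SeMet, and the duct keratin Krt7 and the pancreatic polypeptide gene Ppy were also higher. Col1a1, the only listed marker of stroma, was at 11.1 to 20.1 and 2.78 to 9.57, and no acinar, delta cell, endothelial or immune marker was listed. The part of these shifts in the results below was not tested. In RNA from whole cultures, a change in the cells making a transcript and a change in transcript per cell cannot be told apart.

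4 members of the ER exit and coat genes carry the same 8 letters near their start, and their promoters are shown because these genes rose together. All 11 listed genes of the COPI, COPII and ER translocation classes rose, and not all of them carry these letters. RefSeq promoters (build GRCm38.p6, 250 bases before to 50 after each start) were matched for 51 of the 66 members, 10 of them among the 11 genes of the COPI, COPII and ER translocation classes. The letters TGACGTGG are the element bound by XBP1 and ATF6, the transcription factors of the unfolded protein response. On either strand they were found for Sec16b, Sec24d, Copb1 and Copb2, which is 40% of those 10 genes, and for none of the 28 lower members with a promoter. Among all 27025 genes with a promoter 0.714% hold them, and among the listed genes 1.15%, with 1.53% of the higher and 0.822% of the lower ones. At shares this low, 28 promoters would seldom hold a match, so its absence from the lower members says little. Whether XBP1 or ATF6 acts on these genes was not tested. In the sequences, written 5′ to 3′ on the strand of the gene, the capitals mark these letters or their reverse complement.
Sec16b (chr1:157506546-157506845, strand +): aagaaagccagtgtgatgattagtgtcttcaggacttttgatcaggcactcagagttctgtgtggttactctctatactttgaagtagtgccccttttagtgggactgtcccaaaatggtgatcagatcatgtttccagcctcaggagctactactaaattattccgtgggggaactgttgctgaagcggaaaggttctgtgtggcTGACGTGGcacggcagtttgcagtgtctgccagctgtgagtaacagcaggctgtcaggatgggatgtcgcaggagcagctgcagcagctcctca
Sec24d (chr3:123267246-123267545, strand +): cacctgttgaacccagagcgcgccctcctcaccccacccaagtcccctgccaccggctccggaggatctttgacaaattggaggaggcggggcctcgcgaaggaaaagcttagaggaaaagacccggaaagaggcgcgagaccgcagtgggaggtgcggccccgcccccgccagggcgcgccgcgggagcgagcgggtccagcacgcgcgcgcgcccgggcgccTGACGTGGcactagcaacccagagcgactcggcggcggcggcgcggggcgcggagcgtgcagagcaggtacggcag
Copb1 (chr7:114254631-114254930, strand -): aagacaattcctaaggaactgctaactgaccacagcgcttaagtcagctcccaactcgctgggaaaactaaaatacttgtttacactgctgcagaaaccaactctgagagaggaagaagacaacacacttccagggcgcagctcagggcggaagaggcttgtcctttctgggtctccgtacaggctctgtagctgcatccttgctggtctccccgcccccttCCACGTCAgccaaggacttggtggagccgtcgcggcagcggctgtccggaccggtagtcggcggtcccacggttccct
Copb2 (chr9:98563481-98563780, strand +): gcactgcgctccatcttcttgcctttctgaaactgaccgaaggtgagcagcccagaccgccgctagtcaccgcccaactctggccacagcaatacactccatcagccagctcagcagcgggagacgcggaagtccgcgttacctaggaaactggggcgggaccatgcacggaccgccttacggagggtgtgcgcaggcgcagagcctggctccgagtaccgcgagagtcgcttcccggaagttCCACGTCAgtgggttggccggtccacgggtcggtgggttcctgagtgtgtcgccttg

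The letters begin 44 bases before the RefSeq start of Sec16b, 26 before that of Sec24d, 28 before that of Copb1 and 7 before that of Copb2. The GENCODE genes used for positions here start further upstream, and by those starts each match lies within the gene. The search was made after the directions of these genes were known, it covered 8 motifs on both strands, and a match is a description of letters and not a binding site. The longer ER stress response elements I and II, which bind ATF6 with NF-Y, were in no member promoter, beside 0.137% and 0.0444% of all genes. The cyclic AMP response element TGACGTCA and the lysosomal CLEAR core TCACGTGA were also in none, beside 2.03% and 1.12% of all genes. The amino acid response letters TGATGNAA were in the promoters of Ap4s1, Arl2bp and Tbc1d9, which is 5.88% of members beside 4.51% of all genes. The sterol element TCACCCCAC was found for Sec24d alone among members, beside 0.614% of all genes. The hypoxia core ACGTG, which lies within the XBP1 and ATF6 letters, was in 33.3% of member promoters and 70% of those of the 10 coat and ER genes, beside 21.8% of all genes and 30.6% of the listed ones.

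The ER entry genes rose under SeMet. Sec61a1, the pore-forming subunit of the Sec61 channel (ENSMUSG00000030082, chromosome 6, 88503579 to 88518905, GRCm38 here and below), held 6386, 6244, 6937 and 6235 normalised counts in the controls and 7191, 6995, 7293 and 7644 under SeMet, in the order of replicates 1 to 4 here and below. The lowest SeMet library lay just above the highest control, and the log2 fold change was 0.18 ± 0.04 (SE, here and below). Sec61g, its small gamma subunit, rose from 2322 ± 247 to 2686 ± 122 (mean ± SD of 4 libraries per group, as in later values), and its groups overlapped because control 4 stood at 2692. Sec11a, a catalytic subunit of the signal peptidase that trims entering proteins, rose from 1531 ± 22.7 to 1759 ± 68.8 with no overlap. Sec61g did not pass the stricter adjustment (limma adjusted p = 0.0664), while Sec61a1 and Sec11a did. Exons of Gm44170, on the opposite strand, overlap 8.16% of Sec61a1.

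All 4 listed COPII genes rose (median log2 fold change 0.15). Sec24d, one of the subunits that pick cargo (ENSMUSG00000039234, chromosome 3, 123267455 to 123365641), held 2468, 2330, 2484 and 2293 in controls and 2677, 2662, 2670 and 2822 under SeMet. Its groups were separate, and the log2 fold change was 0.18 ± 0.04 (limma adjusted p = 0.000614, and 0.0104 over all annotated genes). Sec16b, which helps to organise the ER exit sites, was the scarcest of the 4 and changed most. It held 200, 181, 219 and 201 in controls and 260, 222, 228 and 265 under SeMet, so that the lowest treated library stood close above the highest control. Its log2 fold change was 0.28 ± 0.09, and it did not pass the stricter adjustment (limma adjusted p = 0.108). The outer coat genes Sec31a and Sec13 rose by 0.09 ± 0.03 and 0.13 ± 0.04 on the log2 scale. Neither passed the stricter adjustment (limma adjusted p = 0.245 and 0.175), and the values of Sec13, which also serves the nuclear pore, overlapped.

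The 4 listed subunits of the COPI coat rose as well (median 0.11). Copa, the alpha subunit (ENSMUSG00000026553, chromosome 1, 172082529 to 172122330), was the most abundant coat gene. It held 12014, 11926, 12281 and 11634 in controls and 13111, 13592, 14108 and 13981 under SeMet, with a wide gap between the groups. Its log2 fold change was 0.19 ± 0.04 (limma adjusted p = 9.92e-05, and 0.00168 over all annotated genes). Copb2 rose from 5840 ± 152 to 6404 ± 89.4, Copb1 from 4280 ± 79.5 to 4550 ± 51.8 and Copg1 from 7849 ± 175 to 8357 ± 139. None of these groups overlapped, although Copb1 and Copg1 did not pass the stricter adjustment (limma adjusted p = 0.282 and 0.231). The log2 fold change of Copg1 was 0.09, and 0.14 after rescaling to the median ratio of the listed genes. Exons of Gm37756 and Gm26636, on the opposite strand, overlap 7.51% of Copa and 8.55% of Copg1, and it is not known here whether the counting used strand.

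**Figure D2:**
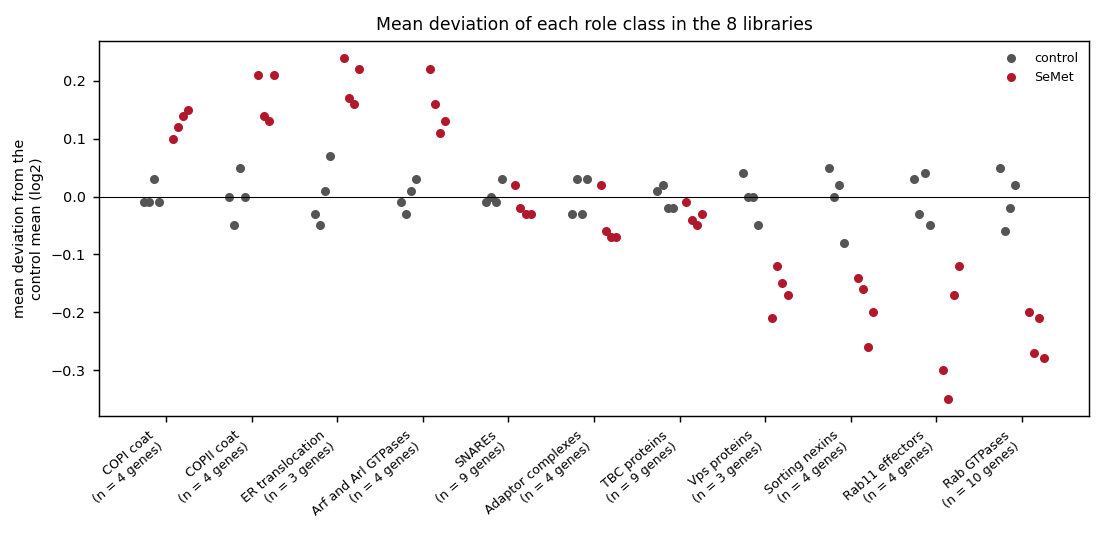
Mean over the genes of a role class of the log2 value minus that gene's control mean (vertical), for controls (grey) and SeMet libraries (red), 1 point per library. The COPI points lie at 0.10 to 0.15 under SeMet and at -0.01 to 0.03 in controls, the sorting nexin points at -0.26 to -0.14 and -0.08 to 0.05, and the SNARE points of the groups overlap.

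Between ER and Golgi the direction was not uniform. The p24 proteins, which span the vesicle membrane and link cargo to coats, divided. Tmed3 held 3194, 3395, 3161 and 2968 in controls and 3886, 3875, 3229 and 3485 under SeMet, with SeMet library 3 inside the control range (log2 fold change 0.18 ± 0.06). Tmed7 fell from 4858 ± 246 to 4460 ± 79.7, and its groups were separate. Exons of Ticam2, on the same strand, overlap 9.48% of it. Neither p24 gene passed the stricter adjustment (limma adjusted p = 0.117 and 0.0934). The TRAPP tether gene Trappc2l fell, with 1066, 1151, 1015 and 1172 in controls and 1003, 960, 923 and 962 under SeMet, close but separate groups (log2 fold change -0.19 ± 0.05). Golga7b, whose family helps palmitoyltransferases and shares only its name with the coiled-coil golgins, held 71.3, 75.5, 93 and 84 in controls and 54.5, 63.3, 48.8 and 56.5 under SeMet. Every SeMet library was below every control (log2 fold change -0.53 ± 0.14).

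The SNAREs, whose pairing drives membrane fusion, comprised 4 that rose and 5 that fell, and the fallers were syntaxins of the plasma membrane and VAMPs of endosomes and the trans-Golgi network. Stx18 and Sec22b, which act in traffic between Golgi and ER, rose. Stx18 held 529, 540, 525 and 521 in controls and 688, 670, 597 and 592 under SeMet. All SeMet libraries were higher, libraries 1 and 2 most (log2 fold change 0.26 ± 0.06). Exons of Gm42858 overlap 19.8% of Stx18. Sec22b rose from 2470 ± 76.6 to 2735 ± 96.9. Snap47, a relative of SNAP-25, rose from 2990 ± 91 to 3504 ± 129, a log2 fold change of 0.23 ± 0.04. Exons of Jmjd4 overlap 11.6% of Snap47.

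Among the SNAREs of secretion, Stx3 and Stx4a, plasma membrane syntaxins that take part in insulin granule fusion, fell. Stx3 (ENSMUSG00000041488, chromosome 19, 11775118 to 11819403) held 1118, 1053, 1065 and 1145 in controls and 1035, 952, 971 and 960 under SeMet, with SeMet library 1 nearest to the controls. Its log2 fold change was -0.16 ± 0.05. Stx4a (ENSMUSG00000030805, chromosome 7, 127824294 to 127849019) held 530, 590, 559 and 600 in controls and 515, 482, 464 and 529 under SeMet, with the highest SeMet library only just below the lowest control. Its log2 fold change was -0.20 ± 0.06. Neither passed the stricter adjustment (limma adjusted p = 0.0701 and 0.0985). Stx2, another plasma membrane syntaxin, fell from 641 ± 5.58 to 530 ± 21.1, the largest fall of the SNAREs (log2 fold change -0.28 ± 0.05), and it passed both adjustments.

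Vamp3, a VAMP of recycling endosomes, held 1433, 1470, 1337 and 1379 in controls and 1235, 1223, 1174 and 1153 under SeMet. Vamp4, of the trans-Golgi network and maturing granules, held 1490, 1475, 1373 and 1446 in controls and 1257, 1266, 1284 and 1232 under SeMet. Both genes were lower in every SeMet library than in any control, by 0.23 ± 0.05 and 0.20 ± 0.04 on the log2 scale. Stxbp5, encoding tomosyn, which occupies syntaxins and so restrains fusion, held 2239, 2231, 2049 and 1995 in controls and 1854, 1878, 2003 and 2007 under SeMet. Its groups met at control 4, and the fall of 0.14 ± 0.05 did not pass after rescaling to the median ratio (limma adjusted p = 0.0548) or by the stricter adjustment (0.157). Vamp2, Stx1a and Snap25 of the core set were not among the listed genes and were not analysed here.

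**Figure D3:**
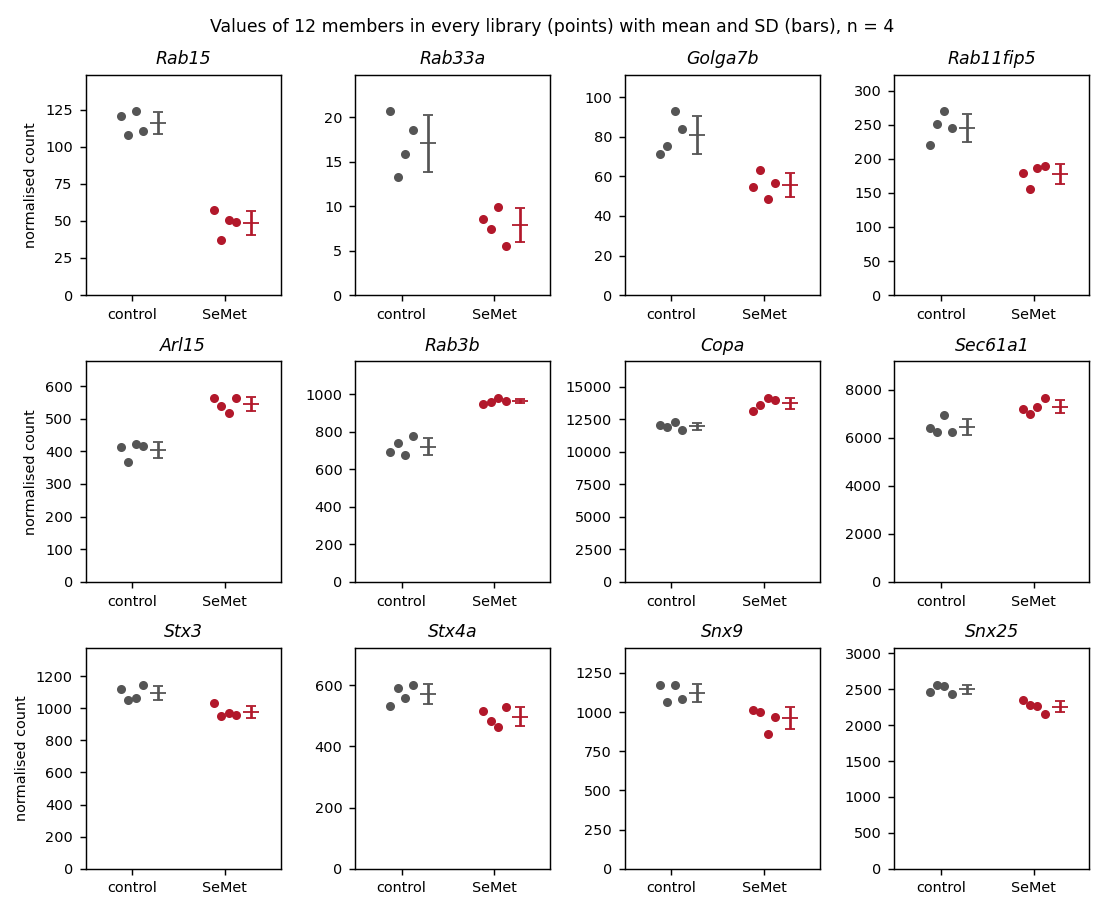
Normalised counts (vertical, from 0) of 12 members in the 4 control libraries (grey) and the 4 SeMet libraries (red), with the mean and SD beside the points. Rab15 falls to 48.6 from 116, the separation of Copa and Rab3b is plain, and the syntaxins Stx3 and Stx4a differ by little.

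Of the 10 Rab GTPases 3 rose and 7 fell. The 3 that rose are all Rabs of secretory granules. Rab3b (ENSMUSG00000003411, chromosome 4, 108879063 to 108943324) held 693, 738, 674 and 775 in controls and 949, 958, 978 and 963 under SeMet. The SeMet libraries lay close together and far above the controls, and the log2 fold change was 0.42 ± 0.05 (limma adjusted p = 1.4e-06, and 2.37e-05 over all annotated genes). Exons of 8030443G20Rik overlap 9% of Rab3b. Rab3d held 2136, 1997, 1991 and 1886 in controls and 2459, 2353, 2113 and 2189 under SeMet, where SeMet library 3 lay below control 1 (log2 fold change 0.18 ± 0.05). Rab37 held 2763, 2785, 2823 and 2985 in controls and 3398, 3149, 3195 and 2976 under SeMet, where SeMet library 4 lay just below control 4 (log2 fold change 0.16 ± 0.04). Rab3d and Rab37 passed the stricter adjustment (limma adjusted p = 0.0371 and 0.0305). Rab3a and Rab27a, the best known granule Rabs, were not among the listed genes.

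Per kb of exon, the control levels of these granule Rabs were 533 for Rab37, 477 for Rab3d and 204 for Rab3b, and 597, 543 and 273 under SeMet.

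Rab15, an endosomal Rab known mainly from neurons (ENSMUSG00000021062, chromosome 12, 76797960 to 76822908), had the largest change of any member. It held 121, 108, 124 and 111 in controls and 57.4, 37.3, 50.7 and 49.1 under SeMet. The highest SeMet library lay far below the lowest control, and the log2 fold change was -1.25 ± 0.14 (limma adjusted p = 5.77e-07, and 9.76e-06 over all annotated genes). Rab33a, a Golgi Rab (ENSMUSG00000031104, chromosome X, 48519285 to 48530232), held 20.7, 13.3, 15.9 and 18.6 in controls and 8.61, 7.45, 9.95 and 5.56 under SeMet. These values rest on few reads, the groups were separate, and the log2 fold change of -1.03 ± 0.30 did not pass the stricter adjustment (limma adjusted p = 0.055). With a pseudocount of 10 in place of 1 the log2 fold change of Rab33a was -0.60 ± 0.18. Per kb, Rab33a was the scarcest member, at 14.8 normalised counts in controls, and Rab15 stood at 25.1. The other Rabs that fell did so by less. Rab31, which serves traffic from the trans-Golgi network to endosomes, fell from 712 ± 26.3 to 577 ± 31.4, and Rab5b, of early endosomes, from 3046 ± 60.5 to 2700 ± 73.6. Rab9b, a relative of the late endosomal Rab9, fell by 0.20 ± 0.06 on the log2 scale and did not pass the stricter adjustment (limma adjusted p = 0.0768). Rab11b, of recycling endosomes, and Rab18, of the ER and lipid droplets, fell by 0.12 ± 0.04 and 0.11 ± 0.04. Neither passed when the libraries were rescaled to the median ratio of the listed genes (limma adjusted p = 0.0991 and 0.0811) or by the stricter adjustment (0.188 and 0.108).

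The Rab11-binding effector proteins link recycling endosomes to motors and tethers. Of the 4 listed, 3 fell and 1 rose. Rab11fip5 held 220, 251, 270 and 246 in controls and 180, 156, 186 and 189 under SeMet, with separate groups (log2 fold change -0.47 ± 0.09). Rab11fip1 held 283, 236, 260 and 264 in controls and 167, 193, 210 and 240 under SeMet, where SeMet library 4 reached the control range (log2 fold change -0.37 ± 0.10). Rab11fip2 fell from 990 ± 47.2 to 793 ± 66.2. Rab11fip4 rose from 951 ± 79.3 to 1106 ± 75.8, and its groups did not overlap.

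TBC proteins carry the domain that switches Rabs off by speeding GTP hydrolysis. Of the 9 listed, 4 rose and 5 fell. Tbc1d4, the Akt substrate that controls glucose transporter traffic in muscle and fat, held 659, 688, 581 and 578 in controls and 519, 546, 567 and 506 under SeMet. All SeMet libraries were below the controls, library 3 by little (log2 fold change -0.23 ± 0.07, limma adjusted p over all annotated genes = 0.0568). Tbc1d30 held 814, 837, 791 and 751 in controls and 897, 876, 868 and 924 under SeMet, with separate groups (log2 fold change 0.16 ± 0.05). Tbc1d8b fell from 1349 ± 61.2 to 1129 ± 63.3. Tbc1d12 and Tbc1d14, relatives that bind Rab11, moved in opposite directions, by -0.24 ± 0.07 and 0.21 ± 0.04 on the log2 scale. Tbc1d12 and Tbc1d30 did not pass the stricter adjustment (limma adjusted p = 0.0974 and 0.0925). Tbc1d10b, which acts on Rab27a and Rab35, fell by 0.15 ± 0.04, and Tbc1d17 by 0.18 ± 0.04. Exons of Il4i1, on the opposite strand, overlap 35.2% of Tbc1d17. Tbc1d9 rose by 0.15 ± 0.04 and Tbc1d31, a protein of centriolar satellites, by 0.22 ± 0.05. Exons of Gm10645, on the opposite strand, overlap 13.9% of Tbc1d9.

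Of the 4 Arf and Arl GTPases 3 rose and 1 fell. Arl15 (ENSMUSG00000042348, chromosome 13, 113794505 to 114157461), whose human locus is associated with circulating adiponectin, held 412, 366, 422 and 416 in controls and 563, 538, 519 and 563 under SeMet. The groups were far apart, and its log2 fold change of 0.44 ± 0.06 was the largest rise of any member (limma adjusted p = 9.6e-06, and 0.000162 over all annotated genes). Arf6, which works in endocytosis and membrane recycling at the cell surface, rose from 2014 ± 47.2 to 2274 ± 150, and Arf2, a class I Arf of the Golgi that humans lack, from 1179 ± 22 to 1319 ± 17.8. Exons of Gm9887 overlap 13.6% of Arf6. Arl3, which releases lipidated cargo in cilia, was at 1288 ± 80.6 and 1157 ± 71.8. Its groups overlapped, and the fall of 0.15 ± 0.05 on the log2 scale did not pass after rescaling (limma adjusted p = 0.0603) or by the stricter adjustment (0.159).

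Of the genes named for binding an Arl, Arl6ip4, a nuclear protein linked to splicing, held 675, 778, 742 and 755 in controls and 948, 882, 776 and 909 under SeMet, where SeMet library 3 lay inside the control range (log2 fold change 0.25 ± 0.06). Arl6ip1, which shapes ER membranes, had the highest level per kb of all members, 3096 in controls and 2865 under SeMet, a fall of 0.11 ± 0.03 on the log2 scale. Arl2bp, a partner of Arl2 and Arl3, fell by 0.15 ± 0.04. Arl6ip1 and Arl2bp did not pass the stricter adjustment (limma adjusted p = 0.0602 and 0.0655), nor Arl6ip1 after rescaling (0.0554).

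Adaptor complexes choose cargo for clathrin and other coats, and each listed subunit belongs to a different complex. Ap4s1, the sigma subunit of AP-4 at the trans-Golgi network (ENSMUSG00000020955, chromosome 12, 51691033 to 51744786), held 455, 497, 493 and 496 in controls and 405, 364, 346 and 367 under SeMet. Its groups were separate, and the log2 fold change was -0.39 ± 0.07 (limma adjusted p = 4.61e-05, and 0.000779 over all annotated genes). Ap3b1, the beta subunit of AP-3, which sorts cargo to lysosome-related organelles, rose from 1788 ± 56.3 to 2040 ± 42.9. Ap1s2, of AP-1, fell from 8717 ± 228 to 8052 ± 142, a difference that did not pass after rescaling (limma adjusted p = 0.0535) or by the stricter adjustment (0.0658). Ap2s1, of the endocytic AP-2, was at 2652 ± 94.2 and 2918 ± 218. Its groups overlapped, and the rise of 0.14 ± 0.05 did not pass without SeMet replicate 1 (limma adjusted p = 0.0583) or by the stricter adjustment (0.17).

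Sorting nexins bind phosphoinositides on endosomes, and 4 of 30 annotated genes of that name were listed (13.3%). These 4 fell together (median -0.20). All 4 passed the stricter adjustment, with adjusted p-values from limma of 0.0219 to 0.0418. Snx21 held 738, 715, 732 and 640 in controls and 650, 605, 549 and 611 under SeMet, where the lowest control, library 4, fell inside the SeMet range. The other 3 were separate. Snx9, a dynamin partner in endocytosis, fell from 1122 ± 58.4 to 962 ± 69.6, Snx13 from 2651 ± 157 to 2355 ± 40.8 and Snx25 from 2500 ± 61.1 to 2259 ± 80.2. The last pair share an RGS domain.

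The 3 Vps genes also fell (median -0.18). Vps13b, a lipid transfer protein of the Golgi, held 1511, 1425, 1372 and 1263 in controls and 1115, 1238, 1292 and 1252 under SeMet, with control 4 inside the SeMet range. Vps52, of the GARP tether that receives endosomal vesicles at the trans-Golgi network, fell from 1623 ± 49.7 to 1438 ± 52.3. Vps11, shared by the HOPS and CORVET tethers of endosomes, fell from 2320 ± 52.9 to 2122 ± 56.7. Of these Vps52 alone passed the stricter adjustment (limma adjusted p = 0.0221, beside 0.0785 for Vps13b and 0.0769 for Vps11). After rescaling to the median ratio the log2 fold change of Vps11 was -0.08 beside -0.13.

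**Figure D4:**
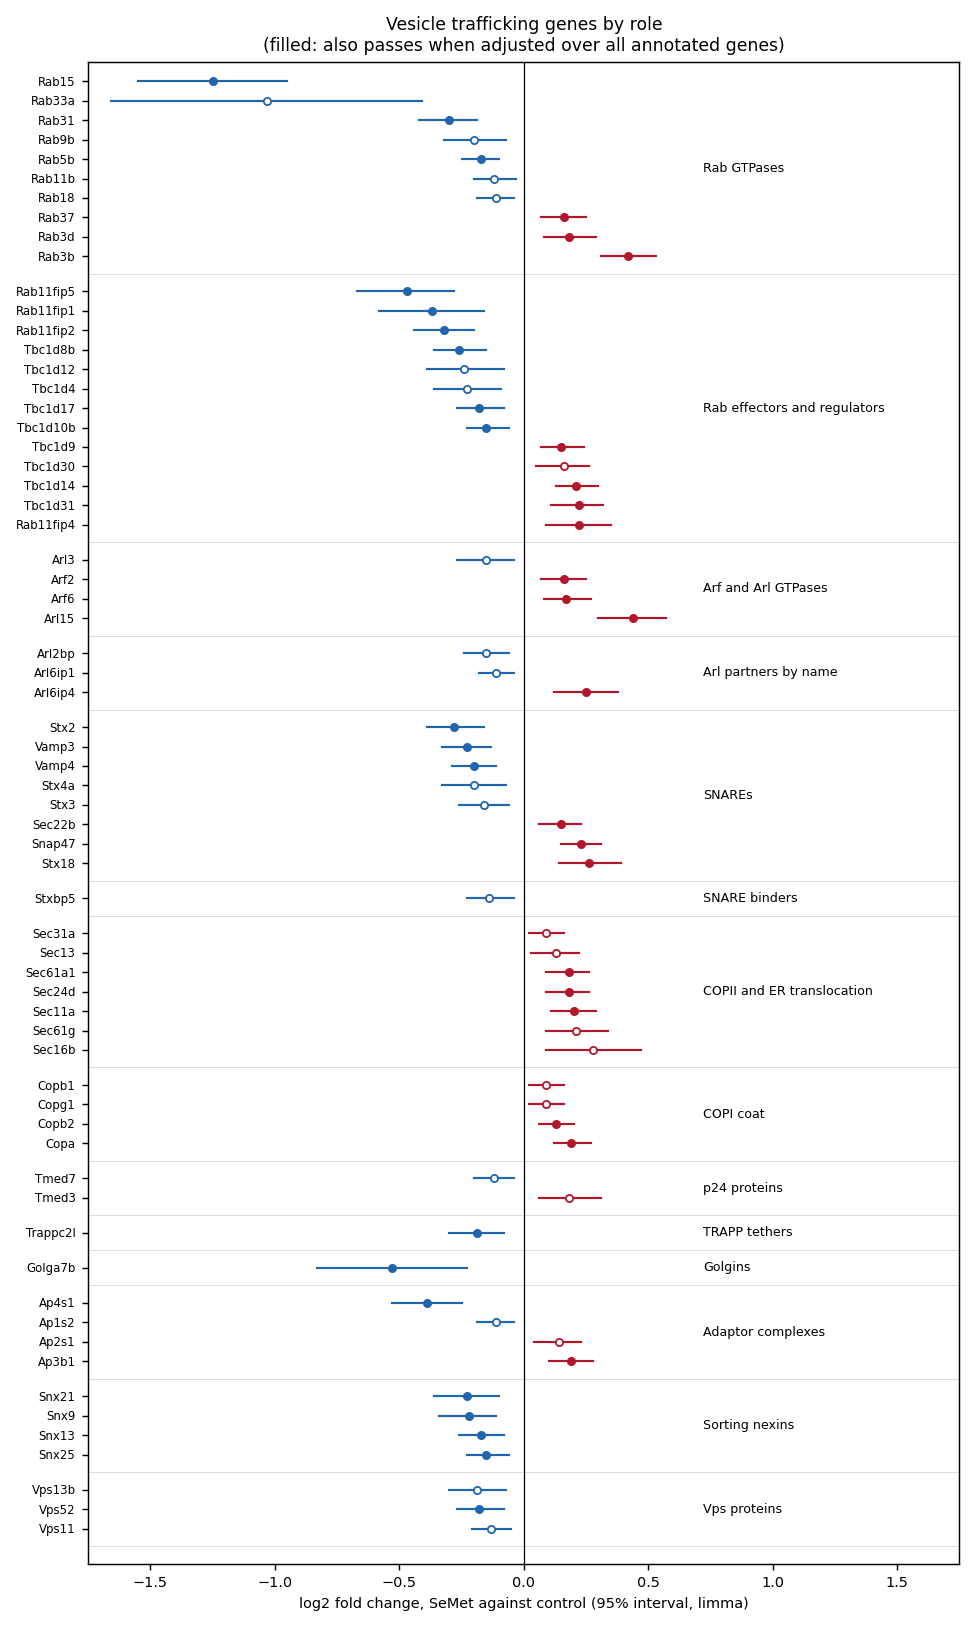
Log2 fold change of SeMet against control for 65 of the 66 members (horizontal) with its 95% interval from limma, grouped by role, red where higher and blue where lower. Filled points also passed when adjusted over all annotated genes. The COPI and the COPII and ER translocation rows lie wholly to the right of 0 and the sorting nexin and Vps rows to the left.

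A further list of 148 trafficking genes that the name pattern does not take was examined in the same fit. Of these 37 were listed, 23 rose and 14 fell, with a median of 0.12 beside -0.13 over all listed genes, and 9 rose and 11 fell by the stricter adjustment. Several that rose act between ER and Golgi. Ergic1, of the intermediate compartment, rose from 2788 ± 107 to 3357 ± 24.4. Lman2, a cargo lectin, rose from 5495 ± 128 to 6041 ± 61, the SNARE gene Gosr2 from 4220 ± 114 to 4763 ± 195, and Sar1a, the GTPase that starts COPII assembly, from 5074 ± 94.9 to 5495 ± 73.1. Sar1a did not pass the stricter adjustment (limma adjusted p = 0.0585). In the same compartment Use1, the SNARE that pairs with Stx18 and Sec22b, fell from 933 ± 26.1 to 744 ± 37, and Cog1 and Cog7, of the Golgi COG tether, fell by 0.15 ± 0.04 and 0.14 ± 0.04 on the log2 scale, neither by the stricter adjustment (limma adjusted p = 0.0659 and 0.0789). Of the listed DENN proteins, which switch Rabs on, Dennd1a alone rose, by 0.17 ± 0.05. Dennd4c fell from 6894 ± 453 to 5659 ± 265, Dennd4b by 0.27 ± 0.06 and Dennd5a by 0.22 ± 0.04. Madd, the DENN protein that acts on Rab3, fell from 6088 ± 146 to 5515 ± 241. Unc13a, which primes granules for fusion, fell from 4754 ± 206 to 4003 ± 196. The largest rise was in Sorl1, a sorting receptor between Golgi and endosomes, from 711 ± 28.9 to 1008 ± 71.9.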

How the data were processed

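RNA from 4 untreated and 4 SeMet-treated MIN6-K8 libraries was sequenced. STAR alignment and featureCounts counting on mm10 are named in the submitters' processing notes. Versions, settings, the annotation, the scaling tool and the rule that chose the listed genes are not given in the sources used. The deposited signal per gene is taken to be counts that the authors divided by a size factor, because 100% of a library's values were whole multiples of its own step (0.885 to 1.15, tolerance 1e-06). The recovered reads are the values divided by this step, and low values were too few for them to be accepted as counts. No count test was run, since normalised values of genes that the authors had selected were expected.

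Symbols matched 3276 of 3278 identifiers, and positions, exon lengths and overlaps came from GENCODE M21 (GRCm38, the assembly of mm10). Tests ran in limma 3.58.1 (statmod 1.5.0, R 4.3.3) on log2(value + 1), trended and robust, with treatment as the only term, all 8 libraries, no low-value filter and Benjamini-Hochberg adjustment over the listed genes (two-sided, threshold 0.05). The fit was also run on simulated data in which only a small part of the genes changed. Nearly all listed genes passed in the real data, so that run does not vouch for these calls. Log2 changes on this scale understate those of low genes. The labels do not say whether libraries are separate cultures, and p-values then measure the spread between libraries, possibly technical.

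The members and lists were chosen with earlier results of these data known. Values per library are given for the 6 largest rises and falls, the member that changed most in each role, and listed genes of the insulin granule machinery. 1 member is counted throughout but its values are not reported here. Values per library of Sec61a1 and Sec24d, and the promoter motifs, were chosen after values were seen. Alternatives were pseudocounts of 0.5 and 10, a minimum mean of 50, rescaling to the median ratio, ordinary limma, a replicate block, adjustment over all annotated genes, and leaving out each library. Reads of near-identical copies cannot be told apart.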

Additional observations from a re-analysis of the deposited data

Results flagged for a closer look

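Among the 132 groups of 4 values examined for the 66 members, 7 held 1 library far from the other 3 (Dixon's test), and chance flags about 1 in 20 groups. Sec61g stood at 2692 in control replicate 4, against 2174 to 2225 in the other controls, and this library made its groups overlap. Arl3 was flagged in both groups, at 1408 in control replicate 4 against 1240 to 1261, and at 1265 in SeMet replicate 1 against 1117 to 1125. Arl2bp, the gene of a binding partner of Arl3, stood at 1891 in SeMet replicate 1 against 1708 to 1726 in the other SeMet libraries. Ap4s1 was low in control replicate 1, at 455 against 493 to 497, which still lay above every SeMet library. Sec24d was high in SeMet replicate 4, at 2822 against 2662 to 2677, and Tbc1d8b in control replicate 1, at 1441 against 1315 to 1326.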

How the results depend on the processing

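No member changed direction under any alternative run. With pseudocounts of 0.5 or 10, a minimum mean of 50 (65 members left), ordinary limma, or any single library left out, every member still passed, except Ap2s1 without SeMet replicate 1. Rescaling to the median ratio, with ratios of 0.983 to 1.03 over the libraries, ended 6 calls, all of them falls, which left 30 members higher and 30 lower. It moved the members' median to -0.07, and the class medians to -0.10 for Rab GTPases, -0.13 for their effectors and regulators, 0.21 for Arf and Arl GTPases, -0.12 for SNAREs, 0.22 for COPII and ER translocation, 0.16 for COPI and 0.06 for adaptors, with 0 Arf and Arl and 1 adaptor gene lower. Under adjustment over all annotated genes 20 members were lower, as were 3 Rab GTPases, 3 SNAREs, 0 Arf and Arl GTPases and 1 adaptor, and higher were 3 COPII and ER translocation genes, 2 COPI, 1 adaptor and 9 of the other trafficking genes. The cause of these losses is the number of genes adjusted for. The minimum mean of 50 left out Rab33a and put the Rab median at -0.12. Leaving out 1 library at a time gave members' medians of -0.13 to -0.10 and Rab medians of -0.16 to -0.14, and 1 to 2 adaptors higher. Deviations from the group means correlated at -0.0111 to 0.154 between same-numbered control and SeMet libraries, and at -0.138 to 0.136 between the others. These weak correlations cannot show whether libraries of the same number were handled together. With the replicate block 30 members rose and 36 fell, as without it. Rab33a, the member with the fewest reads, had a log2 fold change of -0.60 with a pseudocount of 10, beside -1.03.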

Other observations

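The families were listed to different extents. Of 335 annotated protein-coding genes that fit the name pattern 66 were listed (19.7%), beside 14.2% of all protein-coding genes. The levels of unlisted genes are not known here. The COPI coat had 4 of 8 genes listed (50%), the syntaxins 5 of 15 (33.3%) and the TBC proteins 9 of 30 (30%). The Vps genes had 3 of 35 (8.57%), the TRAPP tethers 1 of 15 (6.67%) and the exocyst, which tethers vesicles to the plasma membrane, 0 of 12.

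Further genes of the wider trafficking list moved by small amounts. Nsf, the ATPase that takes spent SNARE complexes apart, rose from 3687 ± 111 to 3957 ± 44.6 (limma adjusted p = 0.00982). The KDEL receptor gene Kdelr2 and the cargo receptor gene Lman1 each rose by 0.12 ± 0.04 on the log2 scale, and the tether gene Uso1 by 0.11 ± 0.04. Dnm2, the dynamin that severs endocytic vesicles, rose from 3019 ± 61.9 to 3298 ± 69.4. Rabac1, a Rab acceptor protein, fell from 3413 ± 199 to 2737 ± 204. Appl2, an effector of Rab5, fell from 1096 ± 50.1 to 925 ± 40.9. The ESCRT gene Chmp4c had the largest fall of this list, from 60.5 ± 12.2 to 37.3 ± 9.73, with overlapping groups (log2 fold change -0.69 ± 0.20, limma adjusted p over the whole annotation = 0.0471). Of the genes in this paragraph, Nsf, Kdelr2, Lman1 and Uso1 missed the threshold when adjusted over the whole annotation (limma adjusted p = 0.166, 0.0958, 0.0543 and 0.126).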
